A study of Mus musculus with 20 samples.

Results

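Ank2 and 3 transcripts annotated inside it, Gm42970, Gm42971, and Gm42972, were followed in left ventricular heart tissue of mice on 4 diets. The members were taken from the count table by gene symbol, 4 genes of the 15956 listed, and all 4 passed the filter on low counts that left 13991 genes for testing. They were chosen by the difference between HF and NP, in which Gm42972 had the smallest p of all genes in an earlier look at these data, with Ank2 taken as its host gene and the other transcripts as its neighbours. The comparison of HF with NP is therefore given for the members as a description, without a test.

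RNA was sequenced from 20 male mice, 5 per group. NP mice received a normal protein diet with 20% casein and LP mice a low protein diet with 5% casein. HF mice received a high-fat diet, 60% fat with 20% casein, and HF + LP mice the same fat content with 5% casein. The study's methods give 4 months of diet and an age of 16 months at tissue collection, whereas the sample labels give 18 months for every mouse. All mice were of a single sex, no group carried a genetic change or a drug, and each library was made from whole ventricular tissue, in which fewer cells of a type and less RNA per cell cannot be told apart. All 12 cardiomyocyte markers were detected, with a summed level between 45436 and 76158 CPM (a count scaled to library size) over the 20 mice. They do not separate ventricle from atrium, and the summed level of 4 atrial markers ranged from 57.2 to 14483 CPM.

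Ank2 encodes ankyrin-B, an adaptor protein that ties membrane proteins to the spectrin skeleton beneath the membrane. In cardiomyocytes it is known to hold the sodium-calcium exchanger, the sodium pump, and the inositol trisphosphate receptor at the transverse tubules and sarcoplasmic reticulum, and human carriers of loss-of-function variants are prone to arrhythmia. Transcripts annotated inside an intron can be RNAs of their own or pieces of the unspliced host RNA, and no function is known for the 3 considered here.

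Ank2 (ENSMUSG00000032826) lies on the minus strand of chromosome 3 in GRCm38, from 126921612 to 127499350, a span of 577739 bases with 27 annotated transcripts, 16 of them protein-coding (GENCODE M21). Gm42972 (ENSMUSG00000105445) extends from 127266673 to 127272289, a length of 5617 bases. Gm42971 (ENSMUSG00000105568) extends from 127283481 to 127285559, a length of 2079 bases. Gm42970 (ENSMUSG00000106446) extends from 127298322 to 127299673, a length of 1352 bases. These 3 genes are on the same strand as Ank2 and lie in a single stretch without Ank2 exons, which runs from 127248233 to 127334793 and measures 86561 bases. In each of the 7 protein-coding Ank2 transcripts that span it, the 3 genes share 1 intron, which extends from 127248233 to 127339131 (90899 bases) in 2 transcripts, from 127104863 to 127339131 (234269 bases) in 4, and from 127104863 to 127498667 (393805 bases) in 1. None of the 3 genes shares a base with an Ank2 exon. Each is annotated as TEC, a class for transcripts that still await experimental evidence.

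The libraries were primed with oligo-dT and read the 3′ ends of RNA, so the last 250 bases of each intronic transcript are shown, in the 5′ to 3′ direction and with the polyadenylation hexamers AATAAA and ATTAAA in capitals. They are GENCODE M21 transcript sequences on GRCm38, minus strand, at chr3:127298322-127298571 for Gm42970, chr3:127283481-127283730 for Gm42971, and chr3:127266673-127266922 for Gm42972.
Gm42970: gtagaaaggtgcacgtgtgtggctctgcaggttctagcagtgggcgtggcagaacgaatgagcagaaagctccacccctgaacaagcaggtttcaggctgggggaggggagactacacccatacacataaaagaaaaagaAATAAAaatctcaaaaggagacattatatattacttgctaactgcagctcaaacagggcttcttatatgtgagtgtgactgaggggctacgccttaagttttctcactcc
Gm42971: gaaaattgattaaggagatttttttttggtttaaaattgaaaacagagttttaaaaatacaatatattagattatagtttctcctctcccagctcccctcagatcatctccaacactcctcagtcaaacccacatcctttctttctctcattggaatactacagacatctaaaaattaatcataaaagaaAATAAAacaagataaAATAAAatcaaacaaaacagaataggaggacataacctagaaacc
Gm42972: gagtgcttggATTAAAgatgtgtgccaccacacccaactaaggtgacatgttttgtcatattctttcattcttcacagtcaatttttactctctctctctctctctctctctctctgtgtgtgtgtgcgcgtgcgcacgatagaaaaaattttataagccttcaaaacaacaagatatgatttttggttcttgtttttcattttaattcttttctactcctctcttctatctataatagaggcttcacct
The hexamer of Gm42970 starts 110 bases from the annotated end. Gm42971 holds 2 copies of AATAAA, starting 60 and 45 bases from its end. Gm42972 holds ATTAAA 240 bases from its end and AATAAA nowhere in this window. Only the transcript strand was searched, and 44.0% of the 133150 annotated transcripts with at least 250 bases hold one of these hexamers in the same window, against 46.9% of the 3224 TEC transcripts. The richest 20-base stretch of the window holds 17 A in Gm42970, 15 A in Gm42971, and 11 A in Gm42972. Oligo-dT can also prime on A-rich stretches within an RNA, and the deposited counts do not show where in a gene the reads lay. Which RNA the counts came from was not tested.

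**Figure D1:**
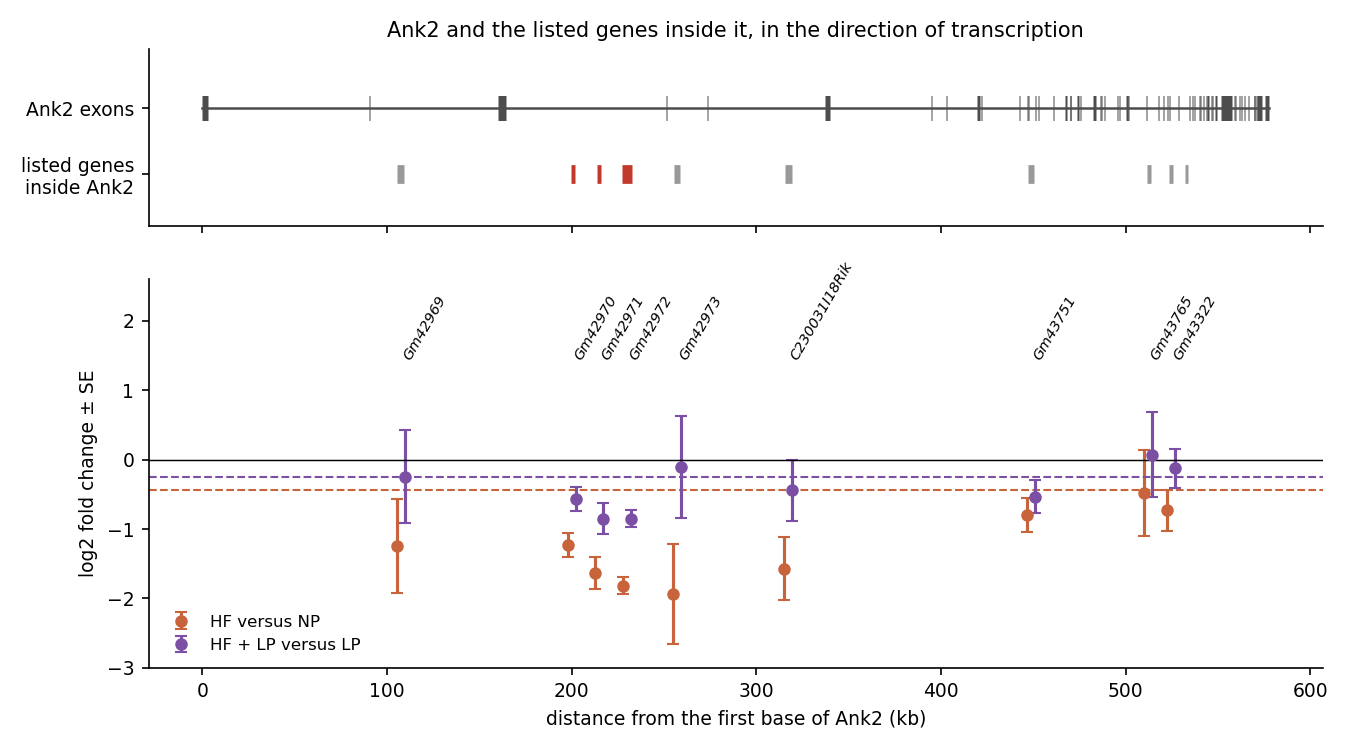
The upper panel draws the Ank2 exons of all annotated transcripts (dark bars) and the 10 genes of the count table inside Ank2 (red for Gm42970, Gm42971, and Gm42972, grey for the others) by distance in kb from the first base of Ank2, with the narrowest features widened so that they can be seen. The lower panel gives the log2 fold change ± SE of the 9 tested genes in HF versus NP and HF + LP versus LP, with dashed lines for Ank2 at −0.43 and −0.25. The 3 red genes sit side by side and have narrower errors than the genes with few counts.

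Total counts per mouse lay between 12559607 and 23331907. Mitochondrial transcripts took 41.3 to 47.1% of counts in NP and 35.4 to 44.5% in LP, against 38.1 to 39.8% in HF and 38.5 to 47.2% in HF + LP. LP mouse 13 stood apart, with a median correlation of 0.908 to the other LP mice against 0.944 to 0.979 for every other mouse within its group. It also had the highest summed adipocyte and atrial marker levels of all mice (304 and 14483 CPM), and LP mouse 20 had the next adipocyte level (141 CPM) and the highest lymphocyte level (127 CPM). Adipocyte markers were at 0.726 to 11.3 CPM in HF + LP and at 4.72 to 304 CPM in LP, and the median log2 fold change of the 6 markers was −4.73 between these groups, with 6 lower at an unadjusted p under 0.05 and 0 called by edgeR. Neuron and Schwann cell markers, which mark other cells that use Ank2, summed to 9.85 to 38.2 CPM in LP and 9.44 to 12.4 CPM in HF + LP (median log2 fold change −0.78 over 5 tested genes). Atrial markers had a median of −1.48 in HF + LP versus LP and 1.31 in HF versus NP, with 0 of 4 at an unadjusted p under 0.05 in either. Their summed levels overlapped, at 130 to 14483 CPM in LP and 57.2 to 5134 CPM in HF + LP. They also overlapped between NP (143 to 3560 CPM) and HF (111 to 12051 CPM, the highest in HF mouse 1). Of the 6 smooth muscle and pericyte markers, 2 were lower at an unadjusted p under 0.05 in each of these comparisons and 0 were called, with Myh11, the smooth muscle myosin, at −1.68 (adjusted p = 0.0213, edgeR) and −1.39 (adjusted p = 0.0341, edgeR). Their medians were −0.21 and −0.47, and their summed levels overlapped between LP (391 to 566 CPM) and HF + LP (469.8 to 613 CPM). Their part in the members' values was not tested, other than by leaving mice out. Mice are named by group and the animal number of the labels, which belong to different animals in different groups. The label of LP mouse 5 alone adds the words sample 2, and no other library is labelled as that animal.

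Ank2 counts overlapped between all diets. Its normalized counts, scaled by TMM to the mean library, were 883, 983, 799, 927, and 1150.2 in NP mice 4, 3, 6, 5, and 8. In LP mice 2, 13, 20, 15, and 5 they were 849, 965, 793, 836, and 812. In HF mice 1 to 5 the values were 617, 523, 847, 592, and 924. In HF + LP mice 1 to 5 they were 935, 672, 669, 645, and 669. There were 3 HF mice below all NP mice and 2 within the NP range, while 4 of 5 HF + LP mice lay close together below every LP mouse and mouse 1 lay among the LP mice. The group means were 948 ± 131 in NP and 851 ± 67.2 in LP, against 701 ± 175 in HF and 718 ± 122 in HF + LP (n = 5, SD). In HF + LP compared to LP the log2 fold change of Ank2 was −0.25 (standard error 0.15), which did not pass the test (adjusted p = 0.426, edgeR's quasi-likelihood test).

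Gm42972 had the lowest counts in HF and the highest in NP, with little spread inside either group. That spread was below the counting error of 140 to 202 reads in NP and 39 to 68 in HF. A choice by the smallest p in HF versus NP favours so small a spread, so it is not read as a trait of the transcript. Normalized counts were 179, 178, 174, 184, and 172 in NP mice 4, 3, 6, 5, and 8. In LP mice 2, 13, 20, 15, and 5 they were 142, 164, 121, 139.9, and 173. The HF mice 1 to 5 had 53.4, 51.4, 52.4, 42.2, and 52.2, and the HF + LP mice 1 to 5 had 68.7, 73.7, 82.7, 84.0, and 101. All HF + LP mice lay below all LP mice, with the share of all genes given below, and LP reached the NP range in 1 mouse. The means were 177 ± 4.60 in NP and 148 ± 20.95 in LP, against 50.3 ± 4.57 in HF and 82.0 ± 12.4 in HF + LP (n = 5, SD). These values rest on 39 to 261 reads per library.

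Gm42971 had the most counts of the 3 intronic transcripts and the widest spread. The normalized counts of NP mice 4, 3, 6, 5, and 8 were 269, 231, 243, 446, and 459. LP mice 2, 13, 20, 15, and 5 had 323, 220.1, 352, 294, and 240.04. HF mice 1 to 5 had 100.4, 87.0, 126, 94.2, and 122, and HF + LP mice 1 to 5 had 219, 142, 195, 129, and 105. All HF and HF + LP mice lay below all NP and LP mice, although HF + LP mouse 1 was next to LP mouse 13. The means were 329 ± 113 in NP and 286 ± 55.2 in LP, against 106 ± 17.2 in HF and 158 ± 47.3 in HF + LP (n = 5, SD).

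Gm42970 followed the same order of group means. NP mice 4, 3, 6, 5, and 8 had normalized counts of 107, 114, 103, 178, and 121, and LP mice 2, 13, 20, 15, and 5 had 118, 83.7, 105, 97.1, and 112. HF mice 1 to 5 had 73.7, 50.1, 43.7, 44.9, and 54.5, and HF + LP mice 1 to 5 had 74.0, 57.7, 68.5, 66.1, and 80.4. The HF and HF + LP mice lay below every NP and LP mouse, and overlapped with each other. The means were 125 ± 30.6 in NP and 103 ± 13.5 in LP, against 53.4 ± 12.2 in HF and 69.3 ± 8.54 in HF + LP (n = 5, SD). It rests on 38 to 147 reads per library, and Gm42971 on 66 to 490.

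**Figure D2:**
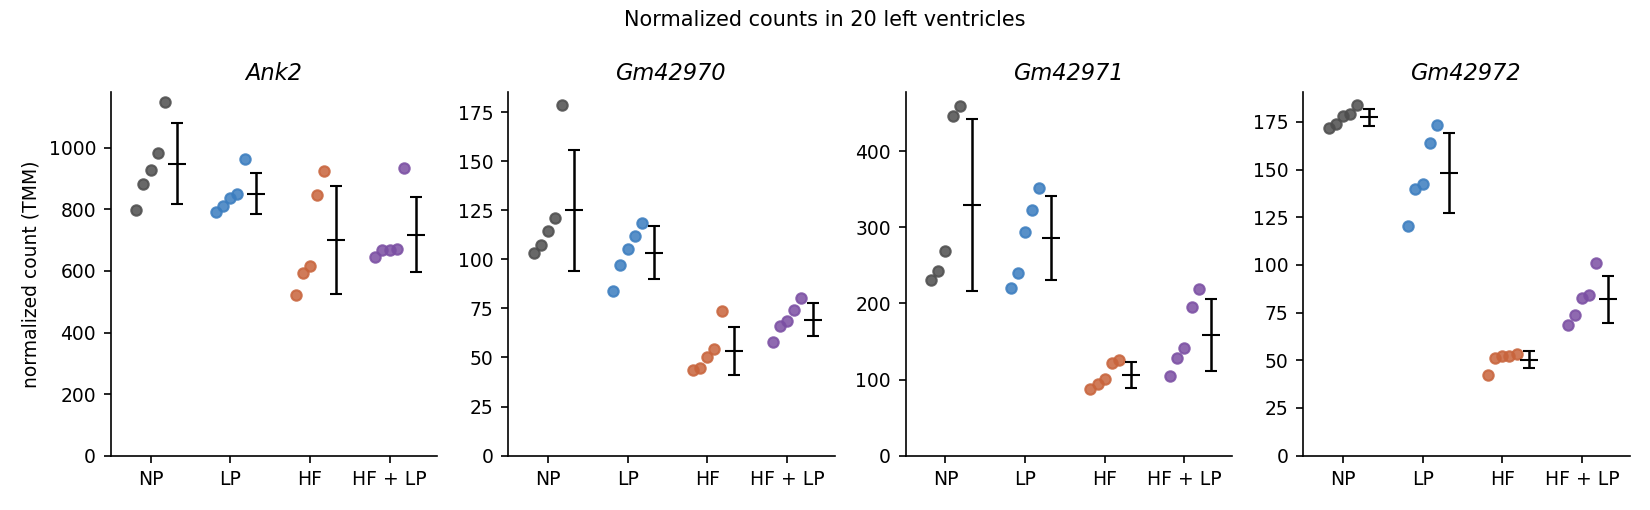
Normalized counts (TMM) of Ank2 and the 3 intronic transcripts, with a point per mouse and, beside the points, the mean ± SD of 5 mice. Each vertical axis starts at 0 and has its own scale. The HF and HF + LP points of Gm42970, Gm42971, and Gm42972 lie below all NP and LP points, whereas those of Ank2 overlap with them.

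HF + LP versus LP compares a high-fat with a normal-fat diet under low protein. It is the single comparison of diets whose fold changes use neither HF nor NP mice. The study's diet composition gives less carbohydrate in the high-fat diets and more in the low-protein diets. By the labels, every HF + LP mouse was also heavier than every LP mouse. A fat or protein difference here means one between these diets, in which fat, protein, carbohydrate, and body weight cannot be told apart. The edgeR test was fitted with all 4 groups, so its estimate of the spread also rests on the HF and NP mice that led to the choice of the members, and the test is not independent of that choice. Gm42972 was lower in HF + LP by a log2 fold change of −0.85 (standard error 0.12), 82.0 against 148 normalized counts, which passed the test (adjusted p = 0.00388, edgeR's quasi-likelihood test over 13991 genes, in 5 of 5 mice below every LP mouse). With only the LP and HF + LP libraries in the model it was again −0.85 but did not pass (adjusted p = 0.163, edgeR), and no gene was called. The SD of Gm42972 was 4.57 in HF and 4.60 in NP, against 20.95 in LP and 12.4 in HF + LP. It ranked 3 by p. Calls needed a mean normalized count above 50 together with an adjusted p below 0.01. By that rule 7 of 13991 genes (0.05%) were called lower, 1 of the 4 members among them. Gm42971 had a log2 fold change of −0.85 (standard error 0.22) and Gm42970 one of −0.57 (standard error 0.17), and neither passed (edgeR adjusted p = 0.0931 and 0.126). For 3 of the 4 members every HF + LP mouse lay below every LP mouse, which was the case for 133 of 13991 genes (0.951%).

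The call of Gm42972 also depended on single mice. Its log2 fold change lay between −0.94 and −0.79 with any 1 of the 20 mice left out, but the edgeR adjusted p rose to 0.0123 without LP mouse 13, 0.0102 without LP mouse 15, 0.0222 without HF + LP mouse 2, and 0.0164 without HF + LP mouse 4. With LP mice 13 and 20, which had the highest adipocyte marker levels, both left out, a setting chosen after seeing the data, it was −0.90 (adjusted p = 0.00666).

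HF versus NP gave the larger fat differences, and led to the choice of the members. Log2 fold changes were −0.43 for Ank2 (standard error 0.15), −1.23 for Gm42970 (0.17), −1.63 for Gm42971 (0.23), and −1.82 for Gm42972 (0.13). The intronic transcripts were thus 2.34, 3.09, and 3.52 times lower in HF, and Ank2 1.35 times lower. In this comparison 30 of 13991 genes (0.214%) were called lower by edgeR, and for 504 genes (3.6%) every HF mouse lay below every NP mouse. Both shares are the background over all genes, and the members are not counted against them, since this contrast fixed the choice. The mitochondrial share of counts was also lower in every HF mouse than in every NP mouse. Macrophage markers summed to 277 to 331 CPM in HF and 210.1 to 252.1 CPM in NP, without overlap, and all 6 had a log2 fold change above 0, 3 of them at an unadjusted p under 0.05, against 5.17% of all genes tested, and 0 called (edgeR). Of the 12 cardiomyocyte markers, 11 lay below 0 (median −0.19), against 50.2% of all genes tested, and 4 at an unadjusted p under 0.05, against 7.91%, with 0 called, and their summed levels overlapped, 51330 to 67008 CPM in HF and 63402 to 76158 CPM in NP. All 7 fibroblast markers also lay above 0 (median 0.19), 1 of them at an unadjusted p under 0.05, against 5.17%, and 0 called. Their summed levels overlapped, 1070 to 1380 CPM in HF and 955 to 1164 CPM in NP. The part of these shifts in the members' values was not tested.

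Differences with protein content were smaller in size on the normal-fat than on the high-fat background for the 3 intronic transcripts with all mice included. In LP versus NP, which shares its NP mice with the comparison used for the choice, log2 fold changes were −0.16 for Ank2 (standard error 0.15), −0.27 for Gm42970 (0.17), −0.20 for Gm42971 (0.22), and −0.26 for Gm42972 (0.12). Single mice moved these small values by more than 1.5 times, to −0.08 for Ank2 without NP mouse 8, to −0.11 for Gm42970 without NP mouse 5, and for Gm42971 to −0.06 without NP mouse 8, −0.07 without NP mouse 5, −0.13 without LP mouse 13, and −0.31 without NP mouse 3. In HF + LP versus HF, which shares its HF mice, they were 0.03 for Ank2 (0.15), 0.38 for Gm42970 (0.17), 0.57 for Gm42971 (0.23), and 0.71 for Gm42972 (0.13). The value of Ank2 was below 0 without HF mouse 1, 2, or 4 or HF + LP mouse 1, and ranged from −0.08 to 0.15 with 1 mouse left out. The fat difference under low protein minus that under normal protein was 0.19 for Ank2 (standard error 0.21), 0.66 for Gm42970 (0.24), 0.78 for Gm42971 (0.32), and 0.97 for Gm42972 (0.17). These differences contain the contrast used for the choice and were not tested.

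**Figure D3:**
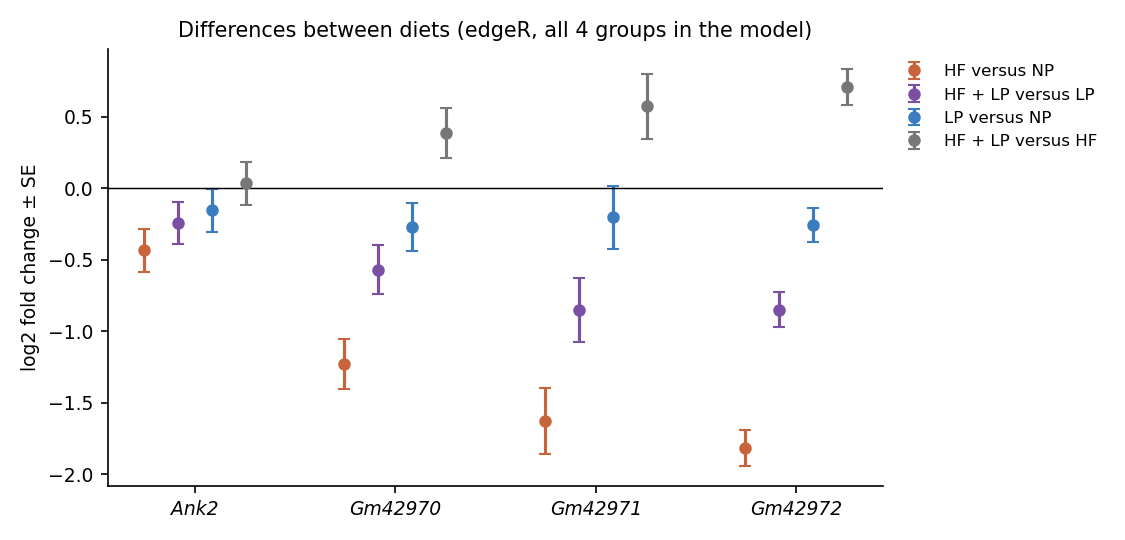
Log2 fold changes ± SE of the 4 members in the 4 comparisons between diets, from edgeR with all 4 groups in the model. HF versus NP values reach −1.82 for Gm42972, HF + LP versus LP values of the intronic transcripts lie between −0.85 and −0.57, and HF + LP versus HF values are the only positive ones. HF + LP versus LP shares no mouse with HF versus NP.

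A ratio of counts within a library needs no scaling between libraries, so each intronic transcript was also expressed per 100 Ank2 counts. It compares numbers of 3′ end reads without a correction for length and is read here between mice, not between genes. Gm42972 gave 20.3, 18.1, 21.7, 19.8, and 14.9 per 100 Ank2 counts in NP mice 4, 3, 6, 5, and 8. LP mice 2, 13, 20, 15, and 5 had 16.8, 17.01, 15.2, 16.7, and 21.3. HF mice 1 to 5 had 8.66, 9.82, 6.19, 7.13, and 5.64, and HF + LP mice 1 to 5 had 7.35, 10.97, 12.4, 13.0, and 15.1. All HF + LP mice lay below all LP mice, the nearest being 15.1 and 15.2, and HF + LP mouse 1, which had the highest Ank2 count of its group, fell into the HF range. How many of the other intragenic pairs described below separate in this way was not counted. In HF + LP versus LP the log2 ratio of Gm42972 differed by −0.59 (standard error 0.19; exact permutation test, two-sided, p = 0.00794, which is the least that 5 mice against 5 can give).

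The ratio of Gm42971 was 34.5 ± 9.60 in NP and 34.0 ± 8.21 in LP, against 15.4 ± 1.39 in HF and 21.9 ± 4.94 in HF + LP per 100 Ank2 counts (SD, n = 5). LP mice ranged from 22.8 to 44.3 and HF + LP mice from 15.7 to 29.2, so these groups overlapped, and their log2 ratio differed by −0.63 (standard error 0.22, two-sided exact permutation test, p = 0.0317). That p rose above 0.05, to at most 0.0635, when LP mouse 2, 15, or 20 or HF + LP mouse 4 or 5 was left out, and was 0.0667 by exact permutation within the library name number. The ratio of Gm42970 was 13.3 ± 3.43 in NP and 12.3 ± 2.21 in LP, against 8.03 ± 2.78 in HF and 9.80 ± 1.61 in HF + LP, with a difference of −0.31 between HF + LP and LP that did not pass (standard error 0.17, exact permutation test, p = 0.119). Without LP mouse 13, whose ratio of 8.67 was the lowest in its group, that difference was −0.43 (exact permutation test, p = 0.0238). These 3 tests were not adjusted for one another. With Ank2 and the 3 transcripts summed as the denominator, the difference of Gm42972 was −0.40 (exact permutation test, p = 0.0556).

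In HF versus NP, as a description, the log2 ratio to Ank2 differed by −0.76 for Gm42970 (standard error 0.27), −1.12 for Gm42971 (0.19), and −1.35 for Gm42972 (0.18). In LP versus NP it differed by −0.10 (0.20), −0.01 (0.24), and −0.12 (0.12) in the same order. HF + LP mice had higher log2 ratios than HF mice by 0.34 (0.25), 0.48 (0.16), and 0.64 (0.23). Per 100 counts of Gm42972 there were 186 ± 64.1 counts of Gm42971 in NP and 200.2 ± 65.9 in LP, against 211 ± 30.7 in HF and 201 ± 81.6 in HF + LP (n = 5, SD), so the ratio of these transcripts to each other varied more between mice than between diets. Gm42970 had 70.2 ± 15.7 counts per 100 of Gm42972 in NP and 71.1 ± 14.7 in LP, against 106 ± 20.1 in HF and 85.4 ± 12.5 in HF + LP.

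**Figure D4:**
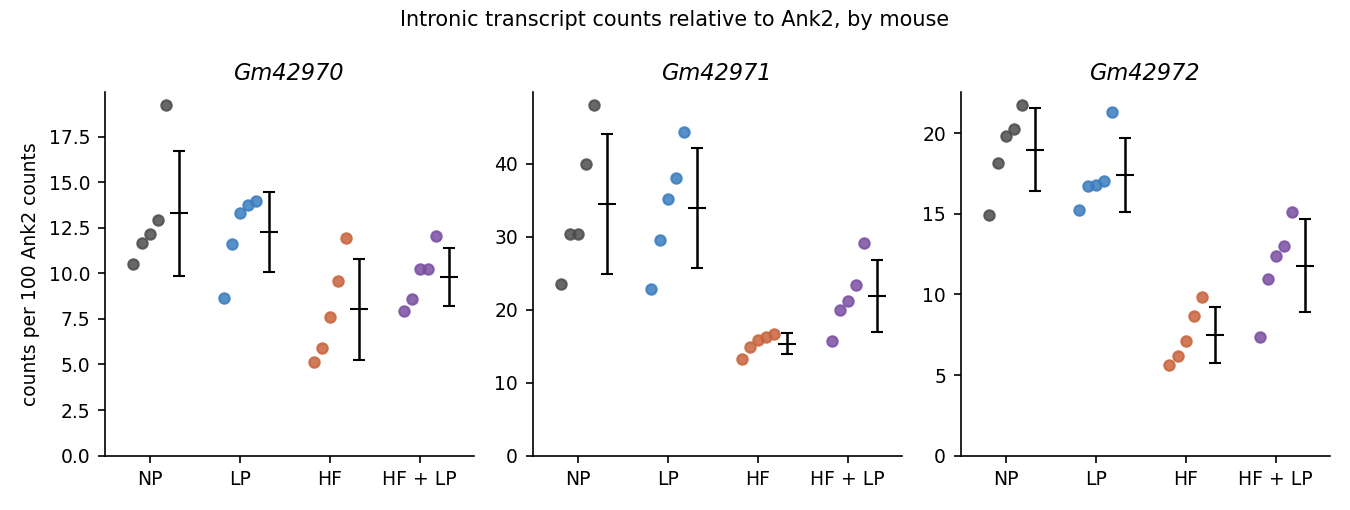
Counts of each intronic transcript per 100 Ank2 counts, with a point per mouse and the mean ± SD of 5 mice beside the points. Each vertical axis starts at 0 and has its own scale. For Gm42972 the HF + LP points reach 15.1 and the LP points begin at 15.2, whereas for Gm42970 and Gm42971 these groups overlap.

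The same ratio was formed for every non-coding gene that lies inside exactly 1 protein-coding gene on the same strand, 469 tested pairs in 329 host genes. In HF + LP versus LP the ratio to the host was lower for 288 pairs (61.4%), with a median difference of −0.17 on the log2 scale, and 1 pair (0.213%) was called lower, Gm42432 in Map4 (limma, adjusted p under 0.05). None of the 3 intronic transcripts was called there (limma adjusted p = 0.315 for Gm42971 and Gm42972, and 0.71 for Gm42970), and their p before adjustment were 0.0228 for Gm42972, 0.0222 for Gm42971, and 0.251 for Gm42970 (limma). Among the 460 pairs with another host, 97 (21.1%) had a lower difference than Gm42972, 88 (19.1%) a lower one than Gm42971, and 182 (39.6%) a lower one than Gm42970. The median difference and these shares include LP mouse 13, which lowers the LP side. Its median log2 ratio to the host was −5.09, against −4.08 to −3.59 in the other LP mice. The median and shares were not formed without it.

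Most intragenic non-coding genes had a lower ratio to their host in HF than in NP. This was so for 405 of 469 pairs (86.4%), with a median difference of −0.49, and 52 pairs (11.1%) were called lower and 0 higher by limma. At an unadjusted p under 0.05 there were 118 pairs. These counts are over all pairs, the intronic Ank2 transcripts included, and nothing is read from the place of those transcripts among them, since this contrast led to their choice. The median log2 ratio of the 460 pairs with another host was −4.06 ± 0.37 in NP and −4.04 ± 0.62 in LP, against −4.56 ± 0.20 in HF and −4.23 ± 0.25 in HF + LP (n = 5, SD), and LP mouse 13 had the lowest value of all mice, −5.09. In LP versus NP the median difference over all pairs was 0.02, and in HF + LP versus HF it was 0.38. The value near 0 in LP versus NP includes LP mouse 13 and was not formed without it. The other LP mice lay at −4.08 to −3.59 and the NP mice at −4.64 to −3.71.

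**Figure D5:**
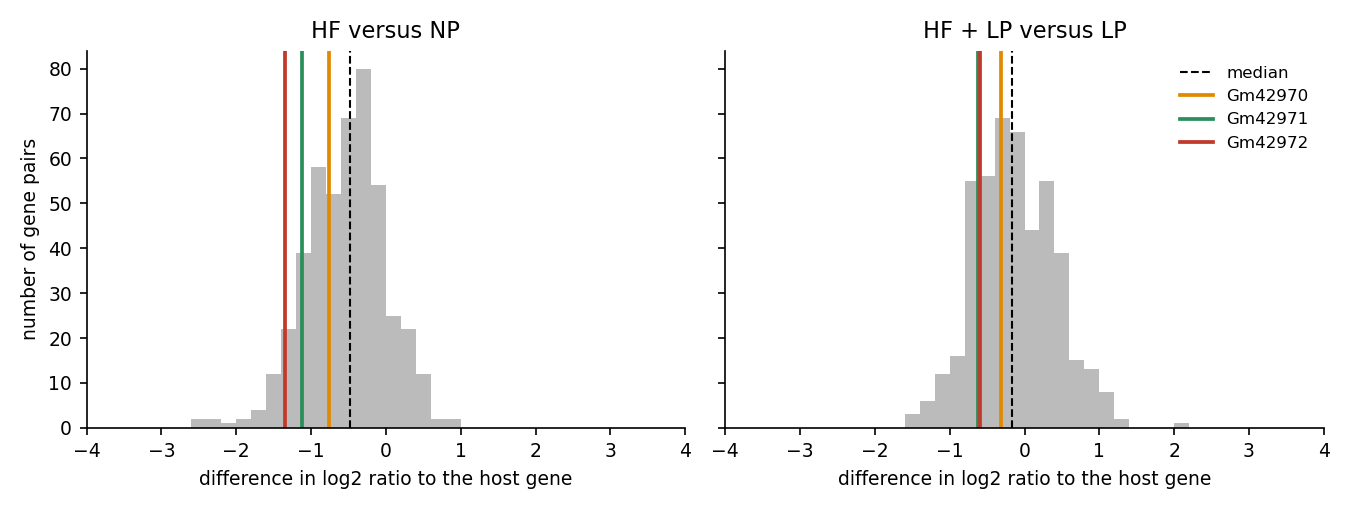
Differences in log2 ratio of intragenic non-coding genes to their host gene for the 460 pairs with a host other than Ank2 (grey bars, 0.2 wide), with a dashed line at their median and coloured lines at the 3 Ank2 transcripts. The medians are −0.49 in HF versus NP, the contrast used for the choice, and −0.17 in HF + LP versus LP, where all 3 coloured lines lie to the left of the median.

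A list of long non-coding RNAs was also followed, among them several known to stay in the nucleus. Of its 19 tested genes, 14 had a log2 fold change below 0 in HF + LP versus LP, with a median of −0.23 against −0.03 over all genes tested, and 16 in HF versus NP, with a median of −0.46 against −0.0011 over all genes. Of all genes tested, 54.2% and 50.2% lay below 0 in these comparisons. In each, 1 of the 19 was called lower and 0 higher by edgeR. Over all 13991 genes, 7 (0.05%) were called lower in HF + LP versus LP and 30 (0.214%) in HF versus NP. The summed levels overlapped between LP (1631 to 5340 CPM) and HF + LP (1642 to 4759 CPM) and between NP (2158 to 6548 CPM) and HF (1449 to 3522 CPM). Neat1, the scaffold RNA of paraspeckles, was the gene called in both, with log2 fold changes of −0.89 (adjusted p = 0.00900, edgeR) and −1.20 (adjusted p = 0.000389, edgeR). The call in HF + LP versus LP was lost with any of 16 of the 20 mice left out and held without NP mouse 4, LP mouse 5, HF mouse 2, or HF + LP mouse 5 (edgeR adjusted p from 0.00626 to 0.0412). It was also lost with only these 2 groups in the model (adjusted p = 0.163), with no filter on low counts (0.0131), with the library name number as covariate (0.0200), without LP mice 13 and 20 (0.0658), and under the replicate block (0.848), which also ended the call in HF versus NP (0.0120). Malat1, the abundant RNA of nuclear speckles, had −0.10 and −0.73 and did not pass in either (edgeR adjusted p = 0.939 and 0.622). The part of nuclear RNA content in the values of the intronic transcripts was not tested.

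The other genes inside Ank2 had few reads. The count table lists 7 besides the 3 described, all annotated as TEC on the same strand and none sharing a base with an Ank2 exon. A930036I15Rik, with 95 reads over the 20 mice, did not pass the filter on low counts. The other 6, Gm43322, Gm43765, Gm43751, C230031I18Rik, Gm42973, and Gm42969, had 815, 311, 739, 669, 144, and 180 reads over all mice. In HF + LP versus LP their log2 fold changes were −0.13, 0.07, −0.53, −0.44, −0.11, and −0.24, and none passed the test (edgeR adjusted p between 0.28 and 0.968). In HF versus NP all 6 were below 0, from −0.48 for Gm43765 to −1.93 for Gm42973, again without passing (adjusted p between 0.0889 and 0.828, edgeR).

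The 2 nearest tested protein-coding genes on either side of Ank2 did not pass in HF + LP versus LP or HF versus NP. Camk2d, which encodes a calcium/calmodulin-dependent kinase of cardiomyocytes and lies 75285 bases beyond the 3′ end of Ank2, had log2 fold changes of −0.07 in HF + LP versus LP (adjusted p = 0.809, edgeR) and −0.28 in HF versus NP (adjusted p = 0.292). Larp7, an RNA-binding protein of the 7SK complex that lies 37363 bases beyond the 5′ end, had 0.16 (edgeR adjusted p = 0.662) and −0.02 (adjusted p = 0.979). Prss12, which lies 3415014 bases beyond the 3′ end, and Zgrf1, 54138 bases beyond the 5′ end, had −0.67 and −0.34 in HF + LP versus LP (edgeR adjusted p = 0.551 and 0.547).

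Correlations between members were computed over all libraries and within groups. Over the 20 libraries, Pearson's r of log2 CPM was 0.90 between Gm42970 and Gm42972, 0.83 between Gm42971 and Gm42972, and 0.86 between Gm42970 and Gm42971. With Ank2 it was 0.58 for Gm42970, 0.74 for Gm42971, and 0.62 for Gm42972. After each group mean was removed, r was 0.24, −0.45, and 0.33 among the transcripts and −0.02, 0.51, and −0.03 with Ank2. These are descriptions over 20 libraries that share diets and scaling and include the HF and NP mice used for the choice, which favours a high r over all libraries, and low counts weaken the values within groups.

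The genes most like Gm42972 over the 20 libraries were Gm42992 (r = 0.94, or 0.36 after removal of group means), BC002189 (0.93, or 0.52), 5430431A17Rik (0.92, or 0.28), Nav2 (0.92, or 0.45), and Gm42970 (0.90, or 0.24), among genes with a mean normalized count over 50. Those most like Ank2 were Kcnn2, a calcium-activated potassium channel (r = 0.87, or 0.81), the microRNA pathway protein Tnrc6c (0.85, or 0.80), Kctd6 (0.85, or 0.84), the focal adhesion protein Tns1 (0.83, or 0.68), and Alas1, the first enzyme of heme synthesis (0.83, or 0.79). None of the 3 intronic transcripts was among the 5 genes nearest to Ank2.

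Partners of ankyrin-B did not pass the test in either comparison of fat content. Of the other ankyrins, Ank1 had a log2 fold change of 0.22 and Ank3 of −0.16 in HF + LP versus LP (edgeR adjusted p = 0.44 and 0.49). Among the 4 tested spectrins, which form the skeleton that ankyrins attach to, Sptan1 had −0.49 (edgeR adjusted p = 0.107), Sptb −0.38 (adjusted p = 0.311), and Sptbn1 0.001 (adjusted p = 0.998). The medians were −0.19 for spectrins in HF + LP versus LP and −0.29 in HF versus NP.

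Membrane and channel partners were 12 tested genes, of which 7 had a log2 fold change below 0 in HF + LP versus LP (median −0.14) and 11 in HF versus NP (median −0.25), with 0 called in either by edgeR. At an unadjusted p under 0.05, 4 of the 12 were lower in HF + LP versus LP and 4 in HF versus NP, against 9.66% and 7.91% of all genes tested, and none was higher. The smallest p in HF + LP versus LP belonged to the calcium channel Cacna1d at −1.17 (edgeR adjusted p = 0.147), the inositol trisphosphate receptors Itpr3 at −0.51 and Itpr2 at −0.52 (adjusted p = 0.206 and 0.26), and the adhesion molecule L1cam at −0.63 (adjusted p = 0.255). In HF versus NP the L-type calcium channel Cacna1c, named after its values were seen, had −0.72 and lay just outside the threshold (edgeR adjusted p = 0.0118), and DESeq2 called it. Of the 13 trafficking and scaffold partners, 7 lay below 0 in each comparison (medians −0.0018 and −0.03), with Tiam1 at −0.54 (edgeR adjusted p = 0.176), Ehd2 at −0.22 (0.41), and Ctnnb1 at 0.10 (0.629) in HF + LP versus LP.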

How the data were processed

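RNA from the left ventricle of 20 mice was converted to QuantSeq 3′ mRNA libraries. Alignment was done by the authors in BlueBee, and they deposited raw counts of reads per Ensembl gene, without normalization, for 15956 genes, each with at least 60 counts over all libraries. The submitters' processing notes name the build GRCm38 and DESeq2 1.22.2. The annotation, the counting program, and its use of strand are not given in the sources used here, so reads of unspliced Ank2 RNA could have been counted on genes in its introns. Positions, gene types, and transcript sequences were taken from GENCODE M21, which matched 15917 listed genes by Ensembl identifier.

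The count test was edgeR's quasi-likelihood test (edgeR 4.0.16, R 4.3.3) with the 4 diet groups as the only term, after filterByExpr and TMM scaling, with Benjamini-Hochberg adjustment over 13991 genes and calls at an adjusted p under 0.01 with a mean normalized count over 50. Ratios used log2 of counts plus 0.5 and two-sided exact permutation tests, and limma 3.58.1 over all intragenic pairs. The tests were tried on simulated counts. Correlations used log2 CPM with a prior count of 2. No 2 libraries of a group agreed within sampling noise. The study's methods state that mice were housed in groups, and the labels do not give the cage or litter of a mouse. Mice were taken as independent units, which could not be checked. The edgeR and limma tests set differences against the spread within all 4 groups, and the exact permutation tests used the LP and HF + LP mice only.

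The members and gene lists were chosen with earlier results of these data known. Genes named are the members, the other listed genes inside Ank2, the 2 nearest tested protein-coding genes on either side, in each ankyrin-B list the genes called or else the 4 with the smallest p, and the 5 genes most correlated with Gm42972 and with Ank2. Some genes that this rule would name are not reported here. Neat1, Malat1, Cacna1c, Myh11, and Gm42432 were named after their values were seen. Alternatives were RLE size factors, DESeq2 1.42.0, a looser adjusted p of 0.05, no filter, a minimum of 10 counts in each library, the animal number as a block, the library name number as covariate, only the 2 groups compared, a pseudocount of 5, another denominator, and each mouse left out.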

Additional observations from a re-analysis of the deposited data

Results flagged for a closer look

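Of 28 groups of 5 mice examined (the normalized counts of the 4 members and the ratios of the 3 intronic transcripts to Ank2, in each diet), 4 held a mouse far from the others, where chance alone would mark about 5% of groups. For Ank2, HF + LP mouse 1 had 935 normalized counts and the other HF + LP mice 645 to 672. For Gm42970, NP mouse 5 had 178 normalized counts against 103 to 121 in the other NP mice, and 19.2 counts per 100 Ank2 counts against 10.5 to 12.9. For Gm42972, HF mouse 4 had 42.2 normalized counts against 51.4 to 53.4 in the other HF mice.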

How the results depend on the processing

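Of 592 alternative values, 545 were labelled unchanged. Tested values had to stay on the same side of the threshold, and counts of genes or pairs within 1.5 times. Untested fold changes had to move by less than the SD within groups. That rule is loose, and every untested fold change met it, so the tally says little about those values. The direction changed only for Ank2 in HF + LP versus HF, an untested value of 0.03 that lay between −0.08 and 0.15 with 1 mouse left out. The fold change of Gm42972 in HF + LP versus LP lost its call with the animal number as a replicate block (−0.90, adjusted p = 0.311, edgeR) and when the other 2 groups were dropped from the model (−0.85, adjusted p = 0.163), and lay between −0.94 and −0.79 with 1 mouse left out. The number of genes called was 14, but 84 with DESeq2, 45 at an adjusted p under 0.05, 5 with the library name number as covariate, 4 without LP mice 13 and 20, 0 under the block, 0 without the other groups, and 1 to 16 with 1 mouse left out, a change of over 1.5 times for 15 of the 20 mice (1 gene without HF + LP mouse 2 or 4). The ratio of Gm42971 to Ank2 (−0.63) had p = 0.0667 by exact permutation within the library name number and lay between −0.76 and −0.52 with 1 mouse left out (exact permutation p from 0.0159 to 0.0635, above 0.05 without LP mouse 2, 15, or 20 or HF + LP mouse 4 or 5). The ratio of Gm42972 was −0.40 (exact permutation p = 0.0556) with all 4 members in the denominator, −0.66 (p = 0.0536, exact) without LP mice 13 and 20, and −0.69 to −0.43 with 1 mouse left out. That of Gm42970 was −0.44 to −0.12 over the settings with no single mouse left out, and −0.43 to −0.24 with 1 mouse left out. In same-number pairs of LP and HF + LP mice as a replicate block, of which there were 2, so that no p below 0.5 was possible, the differences were −0.44, −0.88, and −0.55 for Gm42970, Gm42971, and Gm42972. Pairs called in ratio to the host in HF + LP versus LP numbered 1, but 4 with at least 10 counts in every library for both genes, 0 under the block, and 1 to 6 with 1 mouse left out (3 without LP mouse 13, 6 without HF + LP mouse 5). Among ankyrin-B partners in HF versus NP, 1 gene (Cacna1c) was called by DESeq2, with at least 10 counts in every library, and, in a range of 0 to 1 over mice left out, without LP mouse 13, LP mouse 20, or HF + LP mouse 3. The causes of these changes were not tested.

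Animal numbers were shared by 16 pairs of mice from different groups, which are different animals, and their deviations from the group means had correlations from −0.55 to 0.48, so the numbers were not taken as pairs. With 38 to 1534 reads per member and library, counting error alone is largest for Gm42970 and Gm42972 in HF. The ratio to Ank2 falls both when a transcript falls and when Ank2 rises.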
